A study of Sus scrofa with 6 samples.

Results

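The genes described are COL2A1, COL11A1, ACAN, HAPLN1 and COMP, which encode the core of the hyaline cartilage matrix. They were taken as every probe set that the platform annotation assigns to these 5 symbols, which gave 10 probe sets of 23999 on the porcine expression array and 5 genes of 6765 with a symbol. RNA from pig (Sus scrofa) was measured on 6 Affymetrix arrays, 1 for each condition. Growth plate samples were native growth plate cartilage and its chondrocytes in culture, harvested on days 10 and 20 of differentiation. Articular samples were native articular cartilage and cultures of its chondrocytes at the same days. Cells were released with collagenase and grown without further supplements in serum-containing medium at 37 °C in 5% oxygen and 5% carbon dioxide. The labels do not give the animals' age, breed or number, nor whether arrays shared animals, and no condition had a replicate.

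Hyaline cartilage resists load through a pair of interlocking networks. Thin fibrils of type II collagen, with type XI collagen within them, hold the tissue together in tension. Aggrecan, a proteoglycan rich in chondroitin sulfate, binds along hyaluronan and draws in water, and link protein fixes it there. Chondrocytes that are taken out of this matrix and grown in culture are known for turning down these genes and turning up collagens of fibrous tissue, a change called dedifferentiation. Growth plate cartilage lengthens growing bones before it is replaced by bone, whereas articular cartilage persists at the joint surface.

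Values are linear signal intensities. A signal of 36.1, the 40th percentile of all signals, served as the floor below which probe sets were not ranked. Each of the 5 genes had 2 annotated probe sets. The brighter of each pair lay above the floor on 6 of 6 arrays and represents its gene below. The dimmer ones of COL2A1 (Ssc.16016.1.A1_at) and ACAN (Ssc.15903.1.A1_at) lay under the floor on every array, with highest signals of 34.4 and 11.5. That of COL11A1 (Ssc.15786.1.A1_at) was above it on 1 array, articular day 10, at 44.7. The dimmer probe sets of HAPLN1 and COMP were above the floor throughout and are described with their genes. The yardstick for gaps between arrays was the residual spread of each gene, since no condition had a replicate. This is the SD of its log2 signals around a sum of a tissue and a stage effect, moderated across genes by limma. It comes from these same 6 arrays and measures single arrays, whereas a gap between 2 arrays varies more. Gaps over it are therefore described, and those just over it are no clear separation. Signals of different probe sets cannot be set against each other as transcript amounts.

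Type II collagen signal was highest in native articular cartilage and lower on the other 5 arrays. COL2A1, the chain of the main cartilage fibril (probe set Ssc.16016.1.S1_at), had signals of 1615, 1361 and 1603 in growth plate samples at the native stage, day 10 and day 20. In articular samples its signals were 2929, 1164 and 1689. The native articular array stood 0.79 log2 units above the next array, and no other gap between neighbours in the order exceeded the residual spread of 0.31. In native tissue COL2A1 was 1.81-fold lower in growth plate than in articular cartilage, while the day 20 cultures differed by 1.05-fold. It was 2.52-fold lower in articular cells at day 10 than in native articular cartilage, against 1.19-fold lower in growth plate cells at day 10 than in their native tissue. At day 20 the articular culture was 1.73-fold below its native tissue and the growth plate culture 1.01-fold below.

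The signal of COL11A1 was higher in growth plate than in articular samples at each stage, the opposite of COL2A1 in native tissue though not at day 10. COL11A1, a chain of type XI collagen, which sets the diameter of cartilage fibrils (probe set Ssc.15786.1.S1_at), had signals of 1089, 553 and 756 in growth plate samples in the order native, day 10 and day 20. Its articular signals were 378, 431 and 455, so all 3 growth plate arrays lay above all 3 articular arrays. The growth plate excess was 2.88-fold in native tissue, 1.28-fold at day 10 and 1.66-fold at day 20. The 3 articular arrays and growth plate day 10 followed each other in gaps smaller than the residual spread of 0.36 log2 units. Growth plate day 20 and native growth plate followed at larger gaps of 0.45 and 0.53. The day 10 and day 20 cultures were 1.97-fold and 1.44-fold below native tissue in growth plate, but 1.14-fold and 1.20-fold above it in articular samples. Both articular changes were smaller than the residual spread. The direction at articular day 10 depended on the scaling, at -0.036 log2 units with quantile normalization and -0.017 with median centring. In native tissue the tissue difference of COL2A1 minus that of COL11A1 was -2.39 log2 units, the 2 fibril collagens lying on opposite sides.

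**Figure D1:**
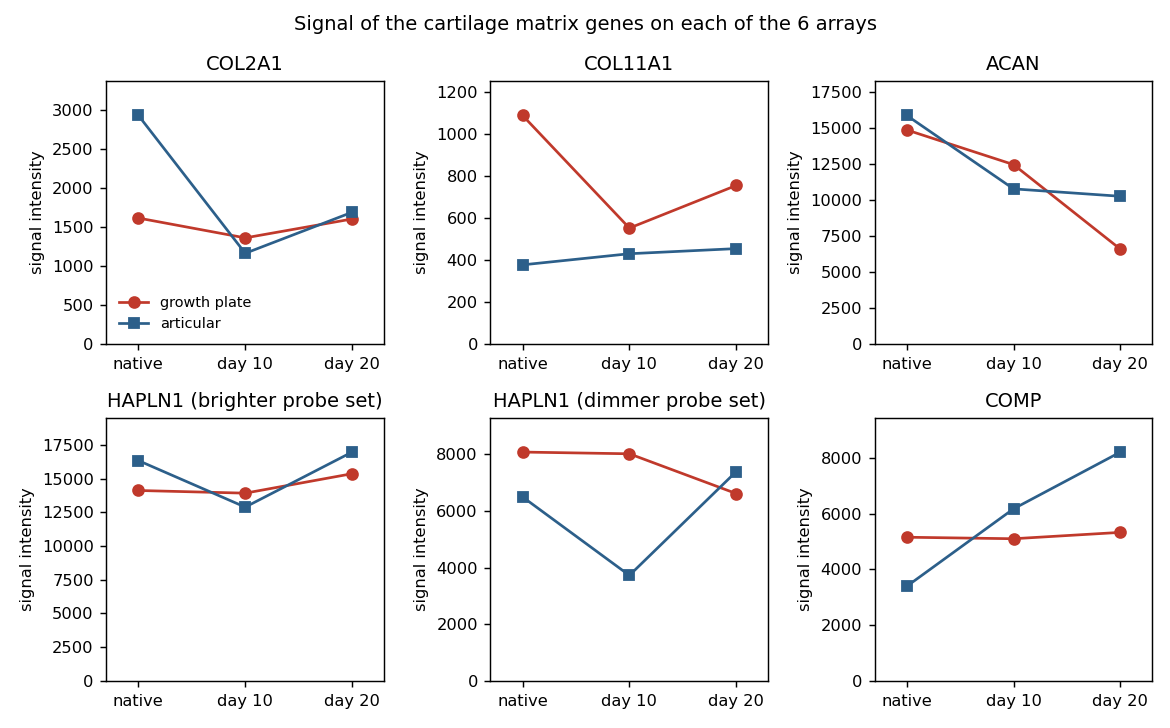
Signal intensity (linear axis from 0, scaled separately in each panel) of the 5 genes, with both probe sets of HAPLN1, in native tissue and at day 10 and day 20, with growth plate as circles and articular as squares, 1 array per point and no replicates. Native articular cartilage is highest for COL2A1 at 2929, the growth plate line lies above the articular line throughout for COL11A1, and COMP reaches 8205 in articular cells at day 20.

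Aggrecan signal was highest in the 2 native tissues and lower in every culture. ACAN, the core protein of aggrecan (probe set Ssc.15907.1.S1_at), had signals of 14874, 12466 and 6596 in growth plate samples in the order native, day 10 and day 20. In articular samples the signals were 15883, 10781 and 10267. Native growth plate and native articular cartilage differed by 1.07-fold, less than the residual spread of 0.25 log2 units. This depended on the scaling, as growth plate minus articular was 0.42 with quantile normalization and -0.35 with median centring. Native growth plate stood 0.25 log2 units above growth plate day 10, just over that spread. Growth plate cells at day 20 had the lowest signal, 2.25-fold below native growth plate cartilage, and the gap of 0.64 log2 units to the next array exceeded that spread. Only 7.28% of all genes were as far apart as this between those 2 arrays. The articular cultures were 1.47-fold lower at day 10 and 1.55-fold lower at day 20 than native articular cartilage, and they differed from each other by 1.05-fold. With quantile normalization the articular day 10 culture was -0.19 log2 units from native tissue.

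Link protein signal was the steadiest of the 5 genes on its brighter probe set, and less so on the other. The brighter one was near the top of every array, with 99.6% to 99.9% of probe sets dimmer. HAPLN1, which locks aggrecan onto hyaluronan, had signals of 14120.3, 13922 and 15365 in growth plate samples on probe set Ssc.7429.1.A1_at, in the order native, day 10 and day 20. The articular signals were 16339, 12888 and 16969.6, and no gap between neighbouring arrays exceeded the residual spread of 0.18 log2 units. On the second probe set, Ssc.16229.1.S1_at, growth plate signals were 8080.4, 8019.5 and 6615 and articular signals 6498, 3726 and 7392. Here articular cells at day 10 stood below all other arrays. On this probe set HAPLN1 was 2.15-fold higher in growth plate than in articular cells at day 10, where the brighter probe set differed by 1.08-fold. The dip at day 10 in articular cells had the same direction on both, at 1.74-fold and 1.27-fold below native articular cartilage. Native growth plate was 1.24-fold above native articular cartilage on the second probe set and 1.16-fold below it on the brighter.

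COMP signal was higher in articular cultures than in native articular cartilage and flat in growth plate samples. COMP is a pentameric protein that binds collagen fibrils and helps assemble them (probe set Ssc.16356.1.S1_at). Its signals were 5152, 5098 and 5326 in growth plate samples in the order native, day 10 and day 20, a spread of 1.04-fold or less. In articular samples they were 3390, 6170 and 8205. The day 20 and day 10 articular cultures were 2.42-fold and 1.82-fold higher than native articular cartilage. COMP was therefore 1.52-fold higher in growth plate than in articular samples in native tissue, but 1.21-fold lower at day 10 and 1.54-fold lower at day 20. Native articular cartilage and articular day 20 were the arrays with gaps to their neighbours above the residual spread of 0.32, at 0.59 and 0.41. The dimmer probe set Ssc.16356.1.A1_at had signals of 106, 122 and 52.3 in the growth plate series and 72.0, 126 and 122 in the articular series. It had the same order of tissues in native tissue and at both culture days, but its growth plate day 20 signal was 2.02-fold below native growth plate, where the brighter probe set was 1.03-fold above.

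The 3 comparisons that the design allows a test for were growth plate against articular samples, cultures against native tissue, and day 20 against day 10. An additive model of tissue and stage was fitted with limma to 5601 genes, so that its p-values rest on the departure of single arrays from that sum and not on replicates. Calling a gene took both a difference of 2-fold or more and an adjusted p (Benjamini-Hochberg) below 0.05. For growth plate against articular samples, 0 of the 5 genes were called, against 0.0536% of all genes. At an unadjusted p under 0.05, 1 of the 5 passed (COL11A1), as did 10.7% of all genes. COL11A1 had a log2 difference of 0.87 ± 0.30 (SE) with a limma adjusted p of 0.452, higher in growth plate in 3 of 3 pairs. The other 4 genes lay between -0.24 ± 0.25 for COL2A1 and -0.08 ± 0.15 for HAPLN1, with limma adjusted p-values of 0.727 and 0.841. Each of the 4 was lower in growth plate in 2 of 3 pairs, but with quantile normalization the differences of ACAN and HAPLN1 were 0.044 and 0.11. On its second probe set HAPLN1 was higher in growth plate in 2 of 3 pairs, at 0.42 ± 0.27 (SE) with a limma adjusted p of 0.622 over 15636 probe sets.

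For cultures against native tissue, 0 of the 5 genes were called, against 0% of all genes, and 1 of the 5 (ACAN) had an unadjusted p under 0.05 in limma, against 19.4% of all genes. ACAN had a log2 difference of -0.65 ± 0.21 (SE) with a limma adjusted p of 0.193, and was lower in culture in 4 of 4 pairs. COL2A1 was also lower in 4 of 4 pairs, at -0.60 ± 0.27 with a limma adjusted p of 0.288. Its growth plate day 20 pair was only at -0.01, and at 0.07 with median centring. COMP was higher in culture in 3 of 4 pairs, at 0.54 ± 0.27 with a limma adjusted p of 0.335. COL11A1 and HAPLN1 had differences of -0.26 ± 0.31 and -0.05 ± 0.16, each lower in 2 of 4 pairs, and HAPLN1 was at 0.073 with quantile normalization. The median over the 5 genes was -0.26, against 0.06 over all genes. Leaving out native growth plate cartilage, native tissue was the native articular array alone, with COL2A1 at -1.06 and COMP at 1.07. These are the means of the articular day 10 and day 20 pairs given above. That fit assumes the native articular array to vary like the cultured arrays, so its p-values measure no spread of native tissue and are left out. Leaving out native articular cartilage instead, COL2A1 was at -0.13 and COMP at 0.02.

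For day 20 against day 10, 0 of the 5 genes were called, against 0% of all genes, and 0 of the 5 had an unadjusted p under 0.05 in limma, against 14.6% of all genes. ACAN was lower at day 20 in 2 of 2 pairs, at -0.49 ± 0.25 (SE) with a limma adjusted p of 0.419. The pairs were unequal, at -0.92 in growth plate and -0.07 in articular cells, and without growth plate day 20 the difference was -0.15. The other 4 genes were higher at day 20 in 2 of 2 pairs, from 0.24 ± 0.32 for COMP to 0.39 ± 0.31 for COL2A1, with limma adjusted p-values of 0.783 and 0.620. On the dimmer probe set COMP was lower at day 20, at -0.64 ± 0.50 and in 2 of 2 pairs. HAPLN1 on its second probe set was at 0.36 ± 0.33 but lower in growth plate cells, where the brighter probe set with quantile normalization was also lower at -0.12. Their median with ACAN was 0.27, against -0.02 over all genes.

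Pairs of single arrays carry no replicate check, so their differences are described only by whether they reached 2-fold. Between native growth plate and native articular cartilage, 1 of the 5 genes (COL11A1) was at least 2-fold apart, as were 20.8% of all genes. Between the growth plate and articular cultures, 0 of the 5 were at day 10 and 0 at day 20, with 7.32% and 6.91% of all genes. Against native growth plate cartilage, 0 of the 5 were at least 2-fold apart at day 10 and 1 (ACAN) at day 20, with 14.3% and 10.3% of all genes. Against native articular cartilage, 1 (COL2A1) was at day 10 and 1 (COMP) at day 20, with 25.7% and 23.8% of all genes. Between day 20 and day 10, 0 of the 5 were in growth plate and 0 in articular cultures, with 13.7% and 11.4% of all genes. No pair of arrays put any of the 5 genes 4-fold apart. These counts use the brighter probe set of each gene. On its second probe set HAPLN1 was 2.15-fold apart between the tissues at day 10. On the dimmer probe set of COMP, growth plate day 20 was 2.33-fold below day 10 and 2.02-fold below native growth plate. There it was also 2.32-fold below articular day 20. The culture pairs of a tissue share its native array, and native articular cartilage correlated least with the other arrays, at a mean r across genes of 0.889 where the other 5 had 0.930 to 0.939. Its part in the differences that involve it was not tested beyond the values without it given above.

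**Figure D2:**
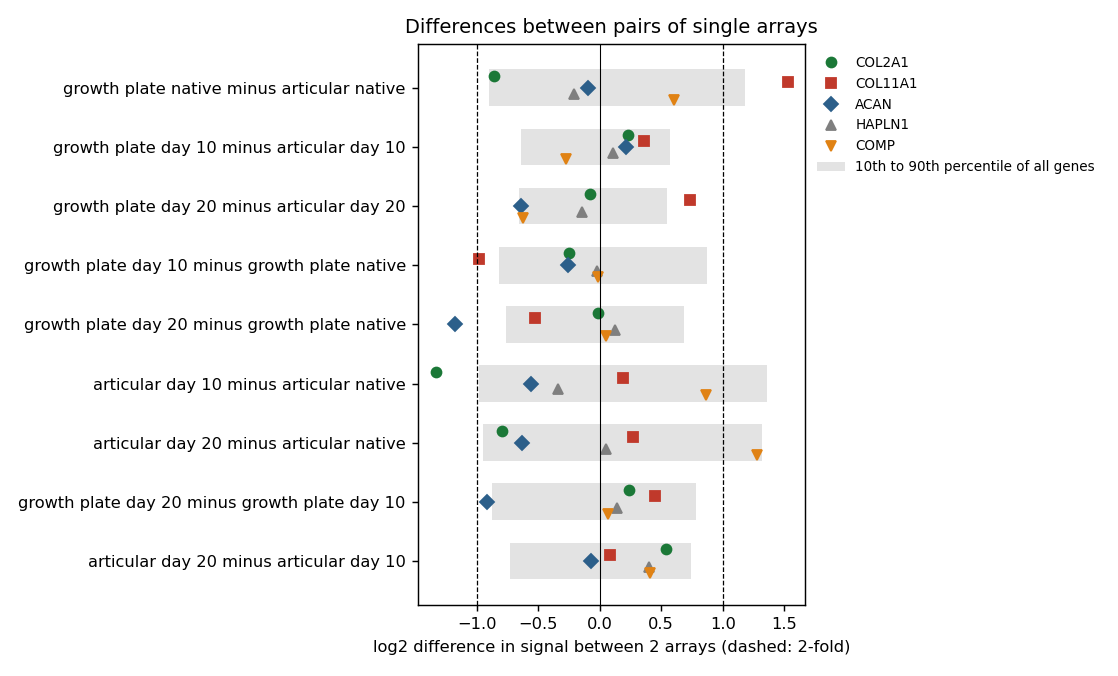
Log2 difference in signal of the 5 genes (symbols) for 9 pairs of single arrays, with the grey bars giving the 10th to 90th percentile of all 5601 genes and dashed lines 2-fold. COL11A1 at 1.53 in native tissue, ACAN at -1.17 at day 20 against native in growth plate, and COL2A1 at -1.33 at day 10 and COMP at 1.28 at day 20 against native in articular cells are the points beyond 2-fold.

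Among themselves the 5 genes did not share a single pattern over the arrays. Over 6 arrays, the highest correlation of log2 signal between members was that of COL2A1 with HAPLN1 on its brighter probe set, at a Pearson's r of 0.73. Their Spearman's rho was 0.89. Correlations with the second HAPLN1 probe set, which had another order of arrays, were not computed. The lowest r was that of COL2A1 with COMP at -0.65, where rho was -0.26, while ACAN with COMP had an r of -0.47 and the lowest rho, -0.77. COL11A1 was within 0.26 of 0 with every other member (from -0.26 with COL2A1 to 0.05 with COMP). These values describe 6 arrays in which 3 stages share a tissue. The log2 range over the arrays was 1.53 for COL11A1, 1.33 for COL2A1, 1.28 for COMP, 1.27 for ACAN and 0.40 for HAPLN1. The median over all genes was 1.11, and 4.28% of genes had a smaller range than HAPLN1 on its brighter probe set. On its second probe set HAPLN1 had a range of 1.12. Among the 1726 genes with a mean log2 signal of at least 10 the median range was 0.88.

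**Figure D3:**
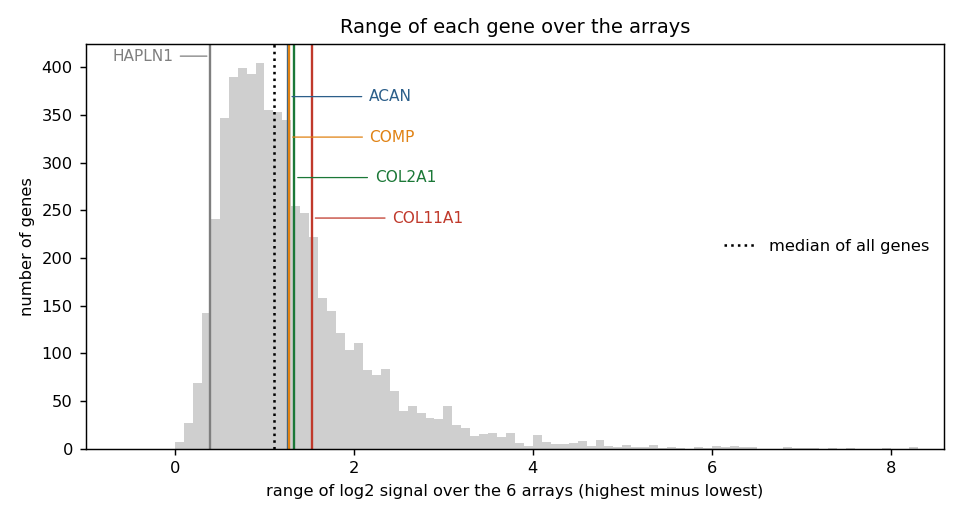
Number of genes by the range of their log2 signal over the 6 arrays, with the 5 cartilage matrix genes as coloured lines and the median of all genes, 1.11, dotted. HAPLN1 on its brighter probe set lies at 0.40 near the low end (1.12 on its second, not drawn), and the other 4 genes lie between 1.27 and 1.53, to the right of the median.

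The genes most alike in pattern were searched among 2696 genes (2697 for HAPLN1) that were above the floor on 6 of 6 arrays with a range of at least 1 log2 unit. An r over 0.95 was reached by 27 genes for COL2A1, 20 for COMP, 9 for ACAN, 3 for COL11A1 and 2 for HAPLN1. The genes named are thus the extremes of a wide search over 6 points. For COL2A1 they were KARS, IMPDH2 and GEMIN5, with a Pearson's r over 6 arrays of 0.99 each (0.994, 0.988 and 0.986). KARS, lysyl-tRNA synthetase, had signals of 7973, 7141 and 8729 in the growth plate series and 14448, 6241 and 8546 in the articular series, again with native articular cartilage on top. For COMP they were PIR at 0.991, LMCD1 at 0.989 and LOC100523107 at 0.988. LMCD1, a LIM domain protein, had signals of 1074, 1006 and 1431 in the growth plate series and 381, 2300 and 4040 in the articular series. For ACAN they were SCAF8 at 0.970, WEE1 at 0.968 and TBC1D1 at 0.968. For COL11A1 they were TRAFD1 at 0.965, TMEM181 at 0.956 and LARP4B at 0.956, and for HAPLN1 AKAP8L at 0.970, YDJC at 0.959 and CGREF1 at 0.928.

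SOX9, the transcription factor that drives COL2A1, ACAN and COL11A1 in chondrocytes, had signals of 175, 125 and 118 in growth plate samples. In articular samples it had 982, 81.0 and 76.8, so that native articular cartilage alone was high, as it was for COL2A1. In articular cells at day 10, SOX9 was -3.60 log2 units from native tissue, where COL2A1 was -1.33, ACAN -0.56 and COL11A1 0.19. In growth plate cells at day 10 it was -0.49, with COL2A1 at -0.25, ACAN at -0.25 and COL11A1 at -0.98. In native tissue, growth plate minus articular was -2.49 for SOX9, -0.86 for COL2A1, -0.09 for ACAN and 1.53 for COL11A1. Over both tissues the culture minus native difference of SOX9 was -2.08 ± 0.71 (SE), with a limma adjusted p of 0.201. SMAD3, a TGF-beta signal carrier that works with SOX9, had 188, 105 and 95.8 in the growth plate series and 693, 76.5 and 149 in the articular series.

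Of other hyaline matrix genes, 3 of the 22 listed had a probe set with their symbol and 2 were tested. limma called 0 in each of the 3 comparisons, and 0 had an unadjusted p under 0.05. Over all genes, at most 0.0536% were called. In limma 10.7% had such a p for tissue, 19.4% for culture and 14.6% for day. PRELP, a leucine-rich proteoglycan of cartilage, also varied little, with signals of 12292, 10353 and 12445 in the growth plate series and 9892, 9304 and 10359 in the articular series. SCRG1, a secreted cartilage protein, was like COMP highest in articular day 20 and lowest in native articular cartilage, with 7436, 6583 and 8270.0 in the growth plate series and 2889, 8953 and 15089.8 in the articular series. Of the genes that build and sulfate aggrecan's sugar chains, 7 of 27 listed were tested. In limma 0 were called and 0 had an unadjusted p under 0.05, beside the same shares of all genes. In any of the 3 comparisons 0 were at least 2-fold apart. Of all genes 5.23% were so for tissue, 10.3% for culture and 9.59% for day. The median of cultures minus native tissue was -0.004, against 0.06 over all genes. Of 11 tested genes of collagen modification and processing, 0 were called by limma for day 20 against day 10, with 3 at an unadjusted p under 0.05 beside 14.6% of all genes. Of these genes, 10 of the 11 were higher at day 20 than at day 10, with a median of 0.51 against -0.02 over all genes. CRTAP, a subunit of collagen prolyl 3-hydroxylase, had signals of 4669, 1786 and 5442 in the growth plate series and 4871, 2660.2 and 4963 in the articular series, lowest at day 10 in both.

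Proteases that act on this matrix and receptors that bind it were also counted. Of 13 tested proteases and inhibitors, limma called 0 for culture against native tissue, with 4 at an unadjusted p under 0.05 beside 19.4% of all genes. In culture 4 were lower by 2-fold or more, where 10.3% of all genes were 2-fold apart in either direction, and the median was -0.41 against 0.06 over all genes. CTSK, a collagen-cleaving cathepsin, had 14768, 6548 and 7793 in the growth plate series and 17802, 5803 and 8225 in the articular series. In growth plate against articular samples, 3 of the 13 were at least 2-fold higher and 2 lower, where 5.23% of all genes were 2-fold apart in either direction. Here limma called 0, with 5 at an unadjusted p under 0.05 beside 10.7% of all genes. Among those 2-fold apart, A2M, MMP13, MMP3 and MMP1 had signals under the floor on some arrays. The size of their differences therefore depends on that floor. Of 9 tested receptors, limma called 0 for culture against native tissue, with 2 at an unadjusted p under 0.05 beside 19.4% of all genes. Their median culture difference was -0.33. At least 2-fold lower was 1 (SDC4, a cell surface proteoglycan), where 10.3% of all genes were 2-fold apart in either direction.

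Fibrous tissue matrix genes were set beside the members because cultured chondrocytes are known to gain them. Of 11 tested, limma called 0 in culture against native tissue, with 6 at an unadjusted p under 0.05 beside 19.4% of all genes. These 6 did not all go up, as COL6A3 and TNC were lower in culture, TNC at -0.55. FN1, SPARC and COL5A1 changed little, at 0.18, 0.02 and 0.004. TNC and these 3 were also chosen after their values were seen. A difference of 2-fold or more was seen upward in 5 and downward in 1, while 10.3% of all genes reached 2-fold in either direction. Their median was 0.96, against -0.26 for the 5 cartilage genes. VCAN, a large proteoglycan of loose and embryonic tissue, had signals of 84.8, 136 and 1312 in the growth plate series and 92.0, 457 and 2489 in the articular series. Its culture difference was 2.93 ± 0.39 (SE), with a limma adjusted p of 0.101. COL1A2, a chain of type I collagen, had 432, 381 and 2343 in the growth plate series and 146, 585 and 838 in the articular series. POSTN, a matricellular protein of fibrous tissue, had 38.8, 12.9 and 161 in the growth plate series and 22.1, 84.7 and 949 in the articular series, 2 of them under the floor. COL3A1, the chain of type III collagen, was chosen after its values were seen. It had 262, 129 and 406 in the growth plate series and 58.0, 157 and 473 in the articular series. The gene lower by 2-fold or more was COL6A3, a type VI collagen chain that surrounds chondrocytes, also chosen after its values were seen, at -1.12 with a limma adjusted p of 0.104. The difference of COL2A1 from native tissue minus that of COL1A2 was -0.07 log2 units at day 10 and -2.45 at day 20 in growth plate cells. In articular cells it was -3.33 at day 10 and -3.32 at day 20, so that the 2 collagens stood apart at both days in articular cells and at day 20 in growth plate cells.

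**Figure D4:**
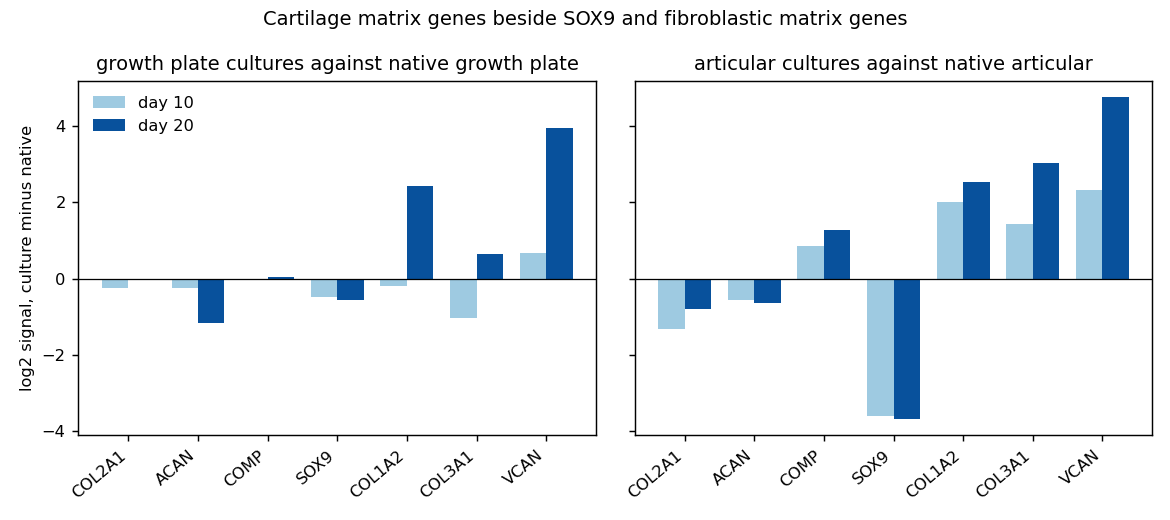
Log2 signal in culture minus native tissue of the same cartilage, 1 array against 1 array, for 3 cartilage matrix genes, SOX9 and 3 fibrous matrix genes at day 10 (light) and day 20 (dark). VCAN reaches 3.95 in growth plate and 4.76 in articular cells at day 20. SOX9 lies at -3.60 and -3.68 in articular cells, and ACAN lies below 0 in all 4 cultures. COL6A3 and TNC, fibrous matrix genes that were lower in culture, are not drawn.

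Markers of other cell types were measured on the same arrays. Of 4 leukocyte markers, PTPRC, CD163 and CD3E were under the floor on every array, as were VWF, CDH5, KDR and TEK of 6 endothelial markers. PECAM1, another endothelial marker, had signals of 67.2, 52.9 and 52.6 in the growth plate series and 277, 118 and 65.6 in the articular series, highest on the array where COL2A1 was highest. The summed signal of 4 muscle markers was 435 to 531 on the culture arrays and 60.4 to 139 in native tissue, with MYH2 under the floor on every array. The summed signals were 56.7 to 124 for 4 osteoblast markers (PHEX under the floor throughout), 256 to 636 for 2 erythroid markers (ALAS2 under it), 51.6 to 202 for 3 adipocyte markers and 45.0 to 445 for 2 synovial lining markers. The 3 osteoclast markers, summing to 5822 to 17859.7, consisted almost wholly of CTSK, which chondrocytes also express. The 8 hypertrophic chondrocyte markers, by far the largest of which in native articular cartilage was SPP1 at 19241, summed to 31059, 36745 and 37530.5 in growth plate and to 19574, 11609.5 and 12288 in articular samples. Of these markers 7 were tested, and 6 were higher by 2-fold or more in growth plate than in articular samples. For this comparison 5.23% of all genes were 2-fold apart in either direction. Of the 7, limma called 2, COL10A1 and ALPL, at adjusted p-values of 0.0206 and 0.0318, against 0.0536% of all genes. COL10A1 was under the floor on all 3 articular arrays. Tendon markers had no probe set with their symbol and were not analysed here. The part of these cells in the members' values was not tested, and in these bulk samples fewer chondrocytes and less RNA of a gene per chondrocyte cannot be told apart.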

How the data were processed

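Total RNA of 6 porcine samples was hybridised to 1 Affymetrix array each, from 100 ng by the Two-Cycle protocol per the labels' protocols. The authors deposited 1 signal intensity per probe set on a linear scale, for which the submitters' processing notes name GCOS 1.4. Its scaling target, algorithm settings and detection calls are not given in the sources used here. The mean signal without the top and bottom 2% of probe sets was near 400.1 and equal between arrays to a factor of 1.000045, so no further scaling was applied. The 6 medians ran from 59.5 to 71.5, and precision is limited by how many arrays there are.

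Of 24123 probe sets 124 controls were left out. Signals below the 40th percentile of all signals (36.1) were set to that floor before taking log2. The platform annotation gave 1 symbol to 10069 probe sets, several to 198 and none to 13732, and 9961 of the first matched a gene ID of the RefSeq table (Sscrofa11.1), used only for names. Each gene was represented by the probe set of highest mean log2 signal, and genes above the floor on at least 2 arrays were tested, 5601 in all. limma 3.58.1 in R 4.3.3 fitted tissue plus stage with an intensity trend, on 2 residual degrees of freedom plus a prior of 3.74. The script was tested on simulated data. Files were read with the R package data.table, version 1.17.8, and figures drawn with matplotlib 3.10.9.

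All 5 members and all their probe sets were described. Of each list of other genes, up to 4 with the largest difference and SOX9 could be named, and for each member the 3 genes of highest Pearson correlation. The members, lists and tests were chosen with earlier results of these data known. Alternatives were quantile normalization, median centring, other floors, a pseudocount of 16, other filters, other ways of joining probe sets, no intensity trend, no minimum fold, a 4-fold rule, the 4 cultured arrays alone, and leaving out each array in turn, with genes filtered again over the arrays kept.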

Additional observations from a re-analysis of the deposited data

Results flagged for a closer look

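COL11A1 had both culture days below native tissue in growth plate and both above it in articular samples, a difference between the tissues of -0.98 log2 units in the mean culture change. COMP was higher in growth plate than in articular samples in native tissue and lower at both culture days, the native difference lying 1.05 log2 units above the mean of the culture differences. Neither difference was tested. No group was large enough to look for an outlying array.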

How the results depend on the processing

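Over all alternatives, 246 of 265 values of the 5 genes in the 3 tested comparisons kept their direction and their side of the threshold. A further 17 changed sign without being called. The other 2, COL2A1 and COMP in culture against native tissue, passed only where native articular cartilage was the 1 native array, whose own spread is not measured. Many values could not have changed direction. Other floors, other filters, testing each probe set, no intensity trend and no minimum fold left the log2 differences as they were. Tissue and day differences were identical whether 1 native array or both were left out. Leaving out arrays in turn, 0 to 2 members were called for culture against native tissue and 0 for the other 2 comparisons. Growth plate minus articular then ran from -0.47 to 0.075 for COL2A1 (positive without either native array), from -0.37 to 0.057 for ACAN and from -0.45 to 0.16 for COMP (both positive without either day 20 array), and from -0.93 to 0.62 for SOX9. Culture minus native ran from -0.75 to 0.23 for COL11A1 and from -0.14 to 0.051 for HAPLN1, and day 20 minus day 10 from -0.84 to -0.15 for ACAN, 0.04 (without articular day 10) to 0.73 for COL2A1, 0.13 to 0.41 for HAPLN1, -0.12 to 0.65 for COL11A1, -0.16 to 0.63 for COMP and -0.86 to 0.70 for SOX9. With the 4 cultured arrays alone, growth plate minus articular was 0.075 for COL2A1 and 0.62 for SOX9. With quantile normalization it was 0.044 for ACAN and 0.11 for HAPLN1, and culture minus native was 0.073 for HAPLN1. With the mean of probe sets, growth plate minus articular was 0.17 for HAPLN1 and day 20 minus day 10 was -0.20 for COMP. The cause was not tested.

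Members at least 2-fold apart on their brighter probe sets numbered 1 in 4 of 9 pairs of arrays and 0 in the rest, and those at least 4-fold apart 0 in all 9. With quantile normalization there were 1 for growth plate day 10 against native, 2 for articular day 10 against native and 1 for growth plate day 20 against day 10. With median centring there were 2 for native growth plate against native articular and 2 for articular day 20 against native. With the mean of probe sets, which joins a dim probe set to each bright one, there were 0 for the native pair, 0 for growth plate day 20 against native and 0 for articular day 10 against native. Over all genes, the count called for growth plate against articular samples was 3, with 0 to 151 under the alternatives, that for culture against native tissue 0 to 1168, and that for day 20 against day 10 0 to 509, the highest counts coming from fits without native arrays. Median centring put the median of all genes at -0.12 for growth plate minus articular, where it was -0.04 as reported and -0.06 with quantile normalization. No paired analysis was possible because the labels give no replicate numbers and tie no arrays to an animal; the pairs counted here share only a tissue or a stage.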
